A study of Drosophila melanogaster with 54 samples.

Results

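The genes described here drive the cell cycle and DNA replication of Drosophila melanogaster. Of 42 such genes chosen by name, 31 had a probe set annotated to that gene alone, 1 each, out of 10843 named genes on the array. The other 11 (CycA, Cdk1, stg, dap, Mcm7, Orc6, RnrS, polo, aurA, BubR1 and pav) were not analysed here. No filter on measured values was applied, but earlier results of these data were known when the genes were chosen.

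A cell copies its DNA in S phase and divides in mitosis, and cyclins bound to cyclin-dependent kinases (Cdks) start each step. E2F transcription factors switch on S phase genes, Rb proteins hold E2F back, and the anaphase-promoting complex (APC/C) destroys cyclins and securin so that mitosis can end. In the embryo of this age, mesodermal and epidermal cells go through their last patterned divisions after the blastoderm stage, while neural stem cells, the neuroblasts, go on dividing.

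The study hybridised RNA of sorted embryonic cells to 54 DrosGenome1 arrays (Affymetrix), which form 3 numbered sets and 18 groups of 3. In every embryo, controls included, twi-GAL4 drove UAS-GFP in cells that express Twist, the factor that specifies mesoderm, and cells were separated by fluorescence-activated sorting. Wild type GFP positive (mesodermal) and GFP negative (nonmesodermal) cells were profiled anew in every set. The genotypes were compared in GFP positive cells and ask how signalling pathways shape the mesodermal programme. Set 1 added UAS-lambda-Top (activated EGFR), UAS-lambda-Htl with UAS-Dof (activated FGFR) and spi mutants. Set 2 added UAS-Arm s10 (activated Armadillo, Arm), UAS-Ras1 Act (activated Ras), both together (Arm+Ras), UAS-Pnt P2VP16 (activated Pointed, Pnt), UAS-Tkv QD (activated Thickveins, Tkv) and wg mutants. Set 3 added Dl mutants, lmd mutants and UAS-Notch intra (activated Notch). Each transgene was expressed in Twist cells through the same driver, while the mutants lacked the gene in the whole embryo. Embryos were aged at 25 °C to 5.5 to 7.5 h, except that the 3 genotypes of set 3 were aged to 6 to 8 h, against 5.5 to 7.5 h in their wild type.

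Values are log2 levels of a probe set. Levels were compared only within a probe set and a set, except that low readings were set against the array medians. Changes are log2 differences ± SE from limma with p-values adjusted over all 13966 tested probe sets. A gene is said to have risen or fallen where adjusted p was under 0.05. Whether the arrays of a called gene overlap is given only as a description, since the gene was picked on the same values. Arrays of one group had pairwise r of 0.872 to 0.943 over the probe sets of the array, as a description. No label states separate collections for the replicates, so the p-values measure only the spread between these samples, and the number of arrays limits the precision. The sort separated the mesoderm: all 7 measured mesoderm markers were higher in GFP positive wild type cells, and all 6 ectoderm and epidermis markers were lower. Of 7 neuroblast markers 3 were lower, and 3 of 4 hemocyte markers were higher. Of 4 germ cell markers 1 was lower, as were 1 of 5 neuron markers and 1 of 4 endoderm and yolk markers. The 3 arrays of wg mutants stood apart. The log2 difference between the 3′ and 5′ control probe sets of eIF-4a, which widens as RNA degrades, was 3.29 to 3.59 against 2.01 to 2.24 in the wild type GFP positive arrays of set 2. They correlated with those wild type arrays at r = 0.827 to 0.846, against r = 0.873 to 0.94 for the other GFP positive genotypes of set 2. In set 3 the same control gave 2.8 to 3.87 over the genotypes and 2.37 to 2.79 in wild type GFP positive cells.

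In wild type embryos, cell cycle genes were lower in mesoderm than in the other cells. Of the 31 genes, 19 fell and none rose, which is 61.3%, against 8.66% of all tested probe sets that were lower. However, 28 of the 31 lay above the median level of the tested probe sets, and brighter probe sets were called more often. Among the 6983 brighter probe sets 1149 were lower, and 19 of the 28 genes measured there fell. The median difference of the 31 was -0.53, against 0.00 over all tested probe sets, and 28 of 31 were below 0. In sorted bulk RNA, fewer dividing cells and less RNA per cell cannot be told apart. The neuroblast markers that were lower beside these genes were nerfin-1 (-0.74), pros (-0.95) and wor (-0.40), and the part of neural cells in the difference was not tested.

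Every measured cyclin and kinase gene was lower in mesoderm, 6 of 6. CycE, whose product activates Cdk2 at the start of S phase, changed the most of the 6. In set 1 it read 7.10, 7.22 and 7.25 in GFP negative cells and 5.77, 6.01 and 6.00 in GFP positive cells. In set 2 it read 6.37, 6.14 and 6.10 against 5.23, 4.90 and 4.47 in GFP positive cells. In set 3 it read 4.84, 5.88 and 5.69 against 4.33, 4.25 and 4.76. The 2 gates did not overlap within any set, and over the 18 arrays CycE fell by 1.21 ± 0.14 (2.31-fold, adjusted p = 4.51e-06). Its partner gene Cdk2 fell by 0.65 ± 0.08 (adjusted p = 8.41e-06). CycB and CycB3, the mitotic cyclins, fell by 0.58 ± 0.08 and 0.59 ± 0.07. CycD and its kinase Cdk4, which promote growth and entry into the cycle, fell by 0.53 ± 0.13 and 0.47 ± 0.08.

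Among the phosphatase and APC/C activator genes, 1 of 3 was lower. The Cdc25 phosphatase gene twe, known for its role in male meiosis and in early embryos that carry maternal product, was that gene. In set 1 it read 6.03, 5.88 and 6.12 in GFP negative cells and 3.56, 3.20 and 0.56 in GFP positive cells. In set 2 it read 4.79, 3.63 and 4.89 against 0.71, 0.99 and 0.55. In set 3 the gates overlapped, at 2.85, 3.45 and 3.58 against 2.55, 2.96 and 2.85. Over all sets twe fell by 2.59 ± 0.47 (adjusted p = 6.36e-04). The readings under 1 lay far below the array medians of 4.166 to 4.62 in sets 1 and 2, and whether such a probe set was above background was not tested, so the size of this fall is uncertain and is given as no fold. The APC/C activator genes fzy (the Cdc20 homologue, -0.10 ± 0.11) and fzr (the Cdh1 homologue, 0.25 ± 0.14) did not pass the test.

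In the E2F and Rb group, 1 of 4 passed. E2f1, the activating E2F, read 8.06, 8.15 and 8.36 in GFP negative cells of set 1 against 7.84, 7.96 and 8.16 in GFP positive cells. The readings were 6.07, 6.17 and 5.82 against 5.88, 5.78 and 5.81 in set 2, and 6.37, 6.43 and 6.30 against 6.08, 5.95 and 6.07 in set 3. The gates overlapped in sets 1 and 2 and were apart in set 3. E2f1 fell by 0.24 ± 0.07 (adjusted p = 0.0245), and its call was lost without wild type GFP negative replicate 1C (adjusted p = 0.0555) or GFP positive replicate 1A. Its dimer partner gene Dp stood at -0.22 ± 0.08 (adjusted p = 0.0514). The repressor gene E2f2 stood at 0.17 ± 0.08 and the retinoblastoma homologue Rbf at 0.36 ± 0.18, and neither passed.

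Of the replication and nucleotide supply genes, 7 of 10 were lower in mesoderm. PCNA encodes the sliding clamp of DNA polymerase. It read 9.52, 9.60 and 9.59 in GFP negative cells of set 1 and 8.46, 8.54 and 8.52 in GFP positive cells. In set 2 the readings were 9.79, 9.88 and 9.67 against 9.00, 9.12 and 9.24, and in set 3 they were 8.30, 8.08 and 8.08 against 7.10, 7.21 and 7.05. No mesodermal array reached the level of a nonmesodermal array of its set, and PCNA fell by 0.92 ± 0.07 (1.89-fold, adjusted p = 1.32e-08), the smallest adjusted p of the 31 genes. The 4 measured subunits of the MCM helicase, which unwinds DNA at the fork, all fell. Mcm2 fell by 0.89 ± 0.14, Mcm5 by 0.71 ± 0.15, Mcm6 by 0.53 ± 0.15 and Mcm3 by 0.52 ± 0.14. The gene of the helicase loading factor Cdt1, dup, fell by 0.88 ± 0.13. RnrL, the large subunit of ribonucleotide reductase, which makes the precursors of DNA, fell by 0.63 ± 0.16. The origin recognition complex genes did not pass: Orc1 stood at -0.22 ± 0.10, Orc5 at -0.32 ± 0.16 and Orc2 at -1.23 ± 0.46 (adjusted p = 0.0778).

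Of the mitosis and cytokinesis genes, 4 of 8 were lower. The spindle checkpoint gene mad2 had the smallest p of them. It read 6.57, 7.15 and 7.01 in GFP negative cells of set 1 against 6.04, 5.81 and 5.84 in GFP positive cells. In set 2 it read 8.23, 7.92 and 7.90 against 6.13, 6.19 and 6.18, and in set 3 it read 5.43, 5.56 and 5.46 against 4.89, 4.88 and 4.56. The gates did not overlap within any set, and mad2 fell by 1.19 ± 0.14 (2.28-fold, adjusted p = 7.91e-06). The securin gene pim, whose product holds back the separation of sister chromatids, fell by 1.75 ± 0.22 (3.37-fold). The kinesin genes ncd (a minus-end motor) and Klp61F (the kinesin-5 of the bipolar spindle) fell by 0.54 ± 0.07 and 0.29 ± 0.07. The Aurora B kinase gene aurB (-0.22 ± 0.14), the checkpoint genes Bub1 (-0.41 ± 0.43) and Bub3 (-0.09 ± 0.09) and tum, a part of the centralspindlin complex of cytokinesis (-0.33 ± 0.14), did not pass.

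**Figure D1:**
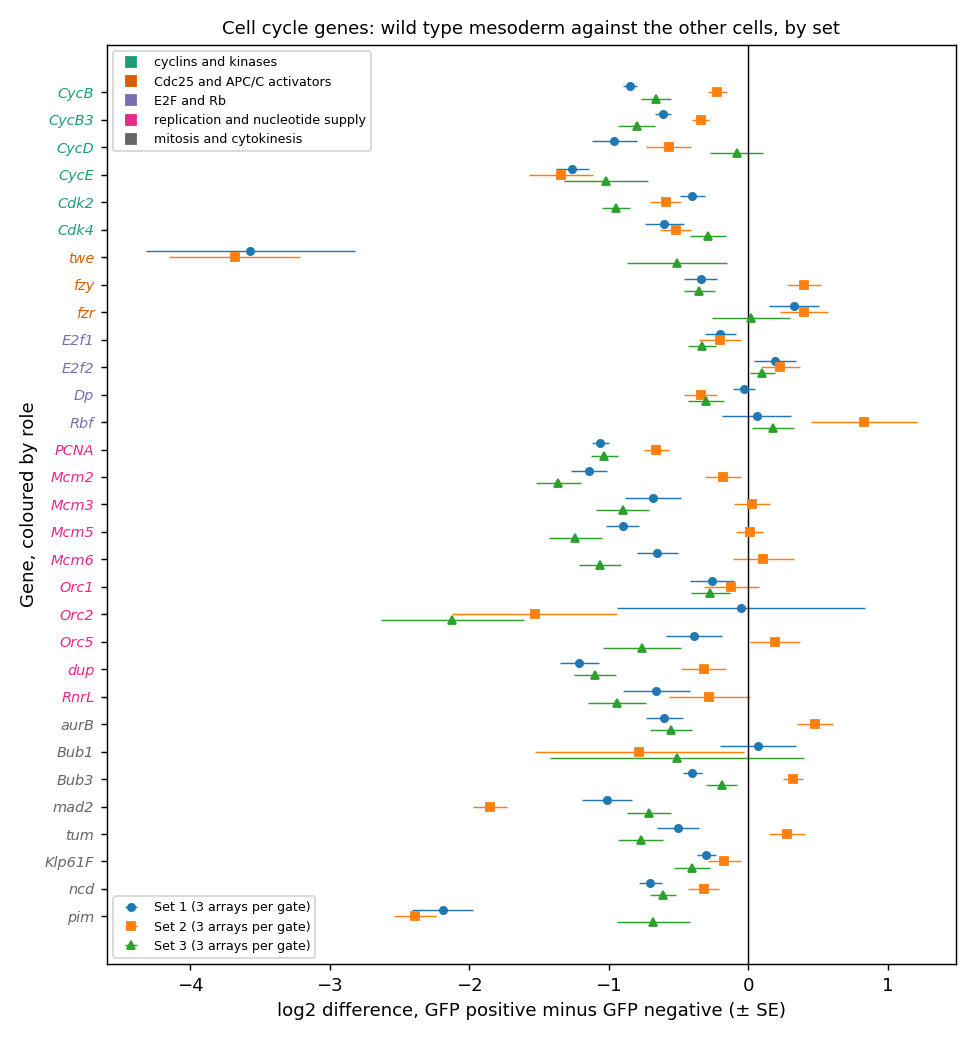
Difference between GFP positive and GFP negative wild type cells for each of the 31 genes, in log2 units ± SE, fitted in each set alone with 3 arrays per gate; genes are ordered and coloured by role. Most points lie below 0, and the set 2 values of Mcm5 (0.01) and aurB (0.48) lie apart from those of sets 1 and 3.

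The size of this difference varied between the sets for 13 of the 31 genes by an F test in limma, against 7.94% of all tested probe sets. Within each set alone, 18 genes fell in set 1 (6.36% of all tested probe sets were lower), 8 in set 2 (6.44%) and 11 in set 3 (1.92%), and 1 gene, Bub3, rose in set 2. In 22 of the 31 genes the difference had the same sign in all 3 sets. Of the MCM helicase genes, Mcm2, Mcm5 and Mcm6 varied: they fell in sets 1 and 3 and did not pass in set 2. Mcm5 differed by -0.90 ± 0.12, 0.01 ± 0.10 and -1.24 ± 0.19 in sets 1, 2 and 3 (interaction adjusted p = 0.00212). On the set 2 arrays Mcm5 read 7.11, 6.97 and 6.98 in GFP negative cells and 7.11, 6.99 and 6.98 in GFP positive cells, which is the same range. Mcm2 differed by -1.14, -0.18 and -1.36, and Mcm6 by -0.65, 0.11 and -1.06. Mcm3 did not pass the interaction test (adjusted p = 0.0732), with -0.68 ± 0.20 (adjusted p = 0.0722), 0.03 ± 0.13 and -0.90 ± 0.19 (adjusted p = 0.0425). The cytokinesis genes aurB (-0.60, 0.48 and -0.55) and tum (-0.50, 0.28 and -0.77) and the APC/C activator gene fzy (-0.34, 0.40 and -0.35) were on the other side of 0 in set 2. The pattern was another for pim, which differed by -2.19, -2.39 and -0.68, and for twe, at -3.57, -3.68 and -0.51: for both the difference was smallest in set 3. The mean level of 4 germ cell markers was 3.71 to 4.24 in GFP negative and 2.69 to 3.61 in GFP positive cells of set 1. In set 2 it was 4.28 to 4.55 against 2.36 to 3.39, and in set 3 the ranges overlapped (2.39 to 3.31 against 2.30 to 2.81). The part of germ cells in the result was not tested. Cdk2 differed most in set 3 (-0.40, -0.59 and -0.95). When 1 array was left out in turn, 8 of the 13 kept the call each time. The calls that were lost were those of Cdk2 (highest adjusted p = 0.0874, without GFP positive replicate 3C, with 10 of the 18 arrays losing it), twe (adjusted p = 0.0866, without GFP negative replicate 3A, with 13 of 18), dup (adjusted p = 0.0765, without GFP positive replicate 2A, with 5 of 18), Mcm6 (adjusted p = 0.0566, without GFP positive replicate 2C) and fzy (adjusted p = 0.0504, without GFP negative replicate 2C). In set 2 the GFP positive arrays read 9.01 to 9.49 in the hybridization controls and the GFP negative arrays 10.09 to 10.43, and the part of this gap in the results was not tested.

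Some genes of the same processes that are not among the 31 fell in mesoderm too, and most did not pass the test. The lists of these further genes were also chosen with earlier results of these data known. Over all tested probe sets 8.66% were lower and 8.03% higher. Of 31 further replication genes 11 fell and 1 rose, with a median of -0.53; the 4 with the smallest p were dUTPase, which clears dUTP (-0.86 ± 0.09), chif, the activator of the Cdc7 kinase (-0.64 ± 0.08), RfC38, a subunit of the clamp loader (-1.03 ± 0.14), and RPA2, a subunit of the single-strand binding protein (-0.74 ± 0.10). Of 28 further control genes 6 fell and 1 rose, with a median of -0.23, and Cks30A, a Cdk subunit, had the smallest p (-0.99 ± 0.12), followed by Cul1 (-0.31), tws (-0.73) and lin-52 (-0.38). Of 20 genes of chromosome structure and the kinetochore 8 fell and none rose, with a median of -0.33. They included the condensin genes glu (-1.0 ± 0.09) and SMC2 (-0.63 ± 0.11), with san (-0.69 ± 0.11) and Det (-0.77 ± 0.11). Of 17 spindle, centrosome and cytokinesis genes 5 fell, with a median of -0.19, among them asl (-0.53), mud (-0.47), SAK (-0.35) and mars (-0.43). Of 16 APC/C and checkpoint genes 3 fell: the ubiquitin-conjugating enzyme gene vih (-0.52), thr (-0.80) and Mps1 (-0.30). The median of these 16 was -0.07.

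Against wild type mesoderm, the genotypes differed in how many of the 31 genes changed. All genotypes of a set were compared with the same 3 wild type GFP positive arrays, so calls they have in common are not independent. In set 2 these arrays also enter the GFP difference. That difference varied between sets for CycB, Mcm2, Mcm5, Mcm6, dup, fzy, aurB, Bub3 and tum, and in each it was less negative or above 0 in set 2. A high reading of these arrays would deepen the falls in every genotype of set 2, and this was not tested. In the hybridization controls these arrays of set 2 read 9.01 to 9.49. Arm read 9.6 to 10.22, Arm+Ras 9.76 to 9.89, Pnt 9.96 to 10.3 and wg loss 10.79 to 11.1. Ras (9.44 to 10.1) and Tkv (9.26 to 9.98) overlapped them, and the part of this gap in the calls was not tested. In the wg mutants 21 genes were called, but 26.6% of all tested probe sets were called there too. With activated Pnt 14 genes were called and with activated Arm 13, against 8.85% and 6.92% of all tested probe sets. With activated Tkv and Ras 5 each were called, against 8.38% and 4.59%, and with loss of Dl 4, against 2.37%. In the other genotypes 3 or fewer were called. Orc1, Orc2 and Bub1 passed neither in the GFP comparison nor in any of the 12 genotypes against wild type.

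**Figure D2:**
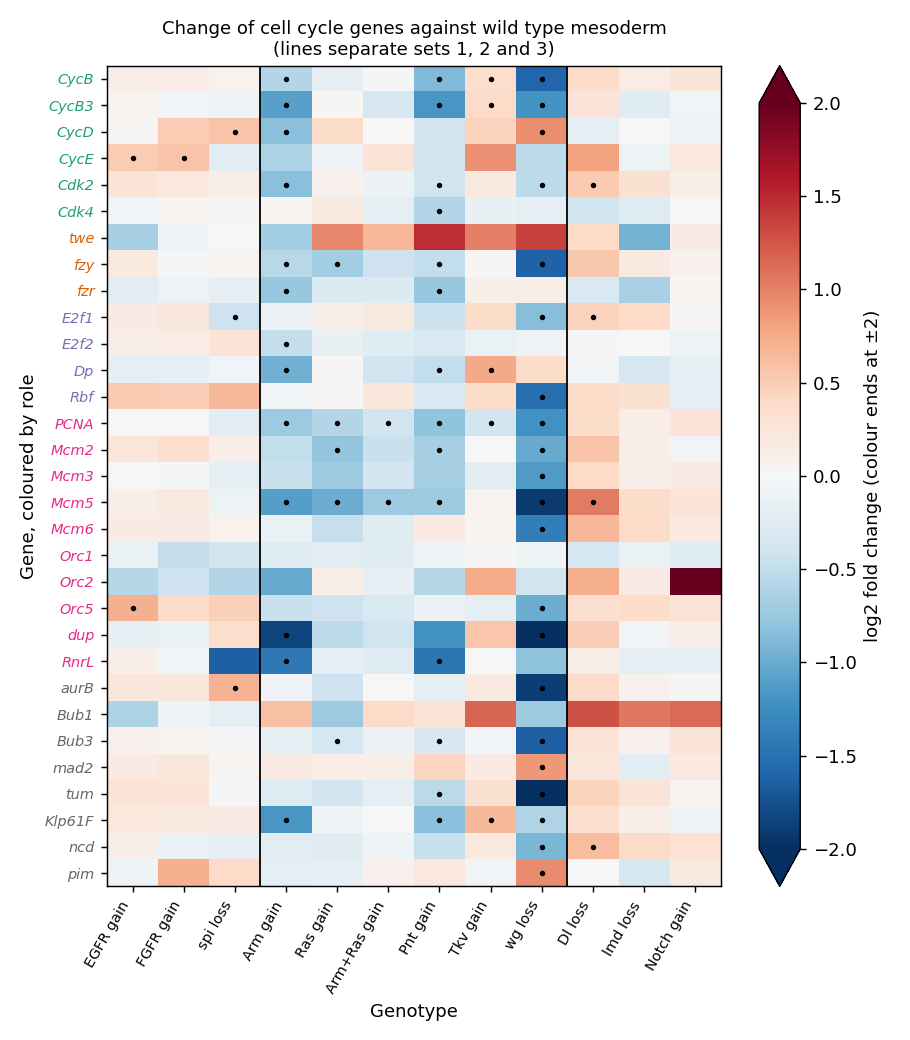
Log2 change of the 31 genes (rows, coloured by role) in 12 genotypes (columns) against the wild type GFP positive cells of the same set, 3 arrays per group; dots mark adjusted p under 0.05 and the colour scale ends at 2 on either side. Blue columns stand out for Arm, Pnt and wg loss, and PCNA and Mcm5 are called in each of Arm, Ras, Arm+Ras, Pnt and wg loss. Columns of one set share the same 3 wild type arrays, so these calls are not independent.

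Activated EGFR and activated FGFR raised CycE. The wild type GFP positive arrays of set 1 read 5.77, 6.01 and 6.00 for CycE. The EGFR arrays read 6.48, 6.45 and 6.34, and the FGFR arrays 6.43, 6.48 and 6.59. Both groups lay above the wild type arrays and below the GFP negative arrays of the set. CycE rose by 0.50 ± 0.10 with EGFR (adjusted p = 0.0189) and by 0.57 ± 0.10 with FGFR (adjusted p = 0.00899). It was the only one of the 31 genes that passed with FGFR, where 1.23% of all tested probe sets were higher. With EGFR 2 genes rose, against 1.30% of all tested probe sets. The other was Orc5, which read 5.73, 5.77 and 5.27 in wild type cells and 6.28, 6.12 and 6.49 with EGFR (0.71 ± 0.17, adjusted p = 0.035). These comparisons share their wild type arrays. None of these calls held when each array was left out in turn. CycE with EGFR reached adjusted p = 0.0751 without wild type GFP positive replicate 1A and was lost also without EGFR replicate 1A or 1B. CycE with FGFR reached adjusted p = 0.0518 without FGFR replicate 1C, and Orc5 with EGFR adjusted p = 0.145 without EGFR replicate 1C. Orc5 was lost also without EGFR replicate 1A and without wild type replicate 1A or 1C, and neither gene passed without EGFR replicate 1A or wild type replicate 1A. Of the neuroblast markers, 1 of 7 was lower with EGFR and 2 with FGFR.

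In spi mutants, which lack a ligand gene of EGFR, 2 of the 31 genes rose (1.75% of all tested probe sets were higher) and 1 fell (1.43% were lower). The Aurora B gene aurB read 6.45, 6.29 and 6.11 in wild type mesoderm and 6.97, 7.02 and 6.96 in the mutants. CycD read 6.17, 6.56 and 6.00 against 6.87, 6.78 and 6.80, and E2f1 read 7.84, 7.96 and 8.16 against 7.49, 7.48 and 7.74. No group of these genes overlapped that of the wild type, and the genes were picked on these same arrays. aurB rose by 0.69 ± 0.11 (adjusted p = 0.00284), CycD rose by 0.57 ± 0.13 (adjusted p = 0.03) and E2f1 fell by 0.42 ± 0.10 (adjusted p = 0.0377). The call of aurB held without any 1 array. CycD and E2f1 reached adjusted p = 0.118 and 0.15 without wild type GFP positive replicate 1C, and both were lost also without spi replicate 1A or 1B. CycD was lost besides without spi replicate 1C or wild type replicate 1A, and E2f1 without wild type replicate 1B. Of 7 neuroblast markers 4 were lower in these arrays, and their part in the result was not tested.

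Activated Arm, the effector of Wg signalling, lowered 13 of the 31 genes and raised none, against 4.37% of all tested probe sets that were lower. The median of the 31 genes was -0.50. The 4 genes with the smallest p belong to mitosis and to S phase. CycB3 read 9.03, 8.90 and 8.98 in wild type mesoderm of set 2 and 8.04, 7.88 and 7.74 with Arm. Klp61F read 8.20, 7.94 and 7.84 against 6.90, 7.02 and 6.60, and PCNA read 9.00, 9.12 and 9.24 against 8.39, 8.43 and 8.39. Cdk2 read 6.86, 7.13 and 7.07 against 6.22, 6.16 and 6.15. In each of these genes, picked on these same arrays, every Arm array lay below every wild type array. Klp61F fell by 1.16 ± 0.12 (adjusted p = 2.58e-06), PCNA by 0.72 ± 0.08 (adjusted p = 6.16e-06) and Cdk2 by 0.84 ± 0.10 (adjusted p = 1.03e-05). CycB (-0.58), CycD (-0.84), fzy (-0.55), fzr (-0.76), E2f2 (-0.48), Dp (-0.96), Mcm5 (-1.10), dup (-1.83) and RnrL (-1.43) fell as well. By role, 4 of 6 cyclin and kinase genes, 4 of 10 replication genes and 1 of 8 mitosis genes fell.

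Leaving out each array in turn kept 8 of the 13 Arm calls. Those of dup, RnrL, CycD, fzy and E2f2 were lost without Arm replicate 2B and again without wild type GFP positive replicate 2A, so that 8 genes were called in either case. Without Arm replicate 2B, RnrL reached adjusted p = 0.224, CycD adjusted p = 0.119, E2f2 adjusted p = 0.118 and dup adjusted p = 0.0861; fzy reached adjusted p = 0.0857 without wild type GFP positive replicate 2A. RnrL was lost besides without wild type replicate 2B or 2C, and E2f2 without Arm replicate 2C or wild type replicate 2B. On Arm replicate 2B dup read 3.23 and RnrL 2.77, while the other Arm arrays read 5.34 and 5.33 for dup and 4.57 and 4.88 for RnrL. Of 7 neuroblast markers 3 were lower with Arm (mira, nerfin-1 and wor), and their mean level was 5.16 to 5.34 against 5.74 to 6.43 in wild type mesoderm. Their part in the result was not tested.

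Activated Pnt, the ETS factor at the end of the Ras pathway, lowered 14 genes and raised none, against 4.98% of all tested probe sets that were lower, with a median of -0.46. CycB3 read 7.81, 7.89 and 7.74, against 9.03, 8.90 and 8.98 in wild type mesoderm. CycB read 8.90, 9.12 and 9.22 against 10.05, 9.91 and 9.96, and PCNA read 8.27, 8.34 and 8.35 against 9.00, 9.12 and 9.24. Klp61F read 6.97, 7.26 and 7.26 against 8.20, 7.94 and 7.84. No Pnt array overlapped the wild type in these genes, which were picked on these same arrays. CycB3 fell by 1.16 ± 0.10 (2.23-fold, adjusted p = 1.03e-07), CycB by 0.89 ± 0.09 (adjusted p = 4.87e-07) and PCNA by 0.80 ± 0.08 (adjusted p = 7.59e-07). Klp61F (-0.83), Mcm5 (-0.71), fzr (-0.76), Cdk4 (-0.58), Cdk2 (-0.40), Bub3 (-0.32), fzy (-0.49), Mcm2 (-0.67), tum (-0.54), RnrL (-1.44) and Dp (-0.49) fell as well.

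Without any 1 array, 7 of the 14 Pnt calls held. Dp reached adjusted p = 0.222, tum adjusted p = 0.125 and RnrL adjusted p = 0.106 without wild type GFP positive replicate 2A. Bub3 and Cdk2 reached adjusted p = 0.0779 and 0.0766 without wild type replicate 2B, where 9 of the 31 genes were called. The call of fzy was lost without Pnt replicate 2C (adjusted p = 0.133) and that of Mcm2 without Pnt replicate 2A (adjusted p = 0.0976). By array, the calls lost were those of Cdk2, Mcm2 and tum without Pnt replicate 2A, Dp, RnrL and tum without 2B, and Dp, RnrL and fzy without 2C. Without wild type replicate 2A they were those of Dp, RnrL, fzy and tum, without 2B those of Bub3, Cdk2, Dp, Mcm2 and RnrL, and without 2C those of Cdk2, Dp, Mcm2 and tum. Of 6 ectoderm markers 3 were lower with Pnt, with a mean level of 3.51 to 4.07 against 5.06 to 5.42, as was 1 of 7 neuroblast markers (5.22 to 5.61 against 5.74 to 6.43). Their part in the result was not tested.

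Activated Ras lowered 5 genes, against 2.12% of all tested probe sets that were lower, and raised none. They were replication genes and the mitotic genes fzy and Bub3. Mcm5 read 6.18, 5.94 and 5.95 against 7.11, 6.99 and 6.98 in wild type mesoderm and fell by 1.00 ± 0.13 (2.00-fold, adjusted p = 6.18e-05). PCNA read 8.46, 8.63 and 8.52 against 9.00, 9.12 and 9.24 and fell by 0.59 ± 0.08 (adjusted p = 8.29e-05). The mitotic cyclin gene CycB3, which fell with Arm and with Pnt, read 9.05, 9.01 and 8.94, which overlapped the wild type readings of 9.03, 8.90 and 8.98. fzy read 7.74, 7.71 and 7.79 against 8.68, 8.41 and 8.22 and fell by 0.69 ± 0.13 (adjusted p = 0.0022). Mcm2 read 5.50, 5.54 and 5.70 against 6.25, 6.40 and 6.46 and fell by 0.79 ± 0.18 (adjusted p = 0.011). Bub3 fell by 0.35 ± 0.08. No group of the 5 genes overlapped the wild type, and the genes were picked on these same arrays. In the GFP comparison Mcm5, Mcm2, fzy and Bub3 varied between sets. In set 2 they stood at 0.01, -0.18, 0.40 and 0.32, while all 4 were below 0 in sets 1 and 3. The same wild type GFP positive arrays enter that comparison and these falls, and their part was not tested. Bub3 lost its call without Ras replicate 2A (adjusted p = 0.0787), and Mcm2 lost it without wild type GFP positive replicate 2C (adjusted p = 0.0563). Bub3 was lost also without Ras replicate 2C or wild type replicate 2B, and Mcm2 without Ras replicate 2A, where 3 genes were called. No neuroblast marker passed with Ras, where their mean level was 6.22 to 6.39 against 5.74 to 6.43 in wild type. The mesoderm markers had a mean level of 7.48 to 7.59 with Ras against 6.70 to 6.77 in wild type (1 of 7 rose), and the hemocyte markers 8.21 to 8.51 against 7.43 to 7.75 (1 of 4 rose). Their part in the result was not tested.

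Arm and Ras together lowered 2 genes, against 1.05% of all tested probe sets that were lower. Mcm5 read 6.40, 6.17 and 6.30 and fell by 0.73 ± 0.13 (adjusted p = 0.00259). PCNA read 8.70, 8.83 and 8.77 and fell by 0.36 ± 0.08 (adjusted p = 0.0156). Both stayed below every wild type array. The call of PCNA was lost without wild type GFP positive replicate 2C (adjusted p = 0.12) or 2B and without Arm+Ras replicate 2A or 2C, which left 1 gene called. Compared directly with Ras alone, limma called 0 of the 31 genes, with 6 at an unadjusted p under 0.05 and 1.60% of all tested probe sets called in either direction.

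For these genes the joint response lay above the sum of the separate responses to Arm and Ras, most of which were falls. The same 3 wild type arrays enter the separate responses and, with the opposite sign, the departure. A high wild type reading would thus deepen the falls and raise the departure together, and this was not tested. Of the genes named below, CycB, Cdk2, fzy, Mcm5 and Bub3 varied between sets in the GFP comparison. PCNA, Klp61F, CycB3 and fzr did not pass that interaction test in limma, which does not set them apart from the others. PCNA differed by -1.06, -0.66 and -1.03 in sets 1, 2 and 3 (interaction adjusted p = 0.0557). CycB3 differed by -0.61, -0.34 and -0.80 (adjusted p = 0.0861), so both were smallest in set 2 too. Klp61F stood at -0.30, -0.17 and -0.40, and fzr at 0.33, 0.40 and 0.02. An interaction contrast over the 4 groups called 9 of 31 genes above the sum and none below it, against 2.35% of all tested probe sets above it, and the median departure was 0.55. For PCNA the sum of the changes was a fall by 0.72 with Arm and by 0.59 with Ras, against a fall by 0.36 with both, and the departure was 0.95 ± 0.11 (adjusted p = 3.43e-05). Klp61F read 6.90, 7.02 and 6.60 with Arm, 7.90, 7.83 and 7.96 with Ras, and 7.99, 8.04 and 7.95 with both, against 8.20, 7.94 and 7.84 in wild type mesoderm. The arrays with both transgenes overlapped the wild type, unlike those with Arm alone, and the departure was 1.25 ± 0.17 (adjusted p = 1.21e-04). Mcm5 departed by 1.37 ± 0.19 (adjusted p = 1.41e-04) and CycB by 0.75 ± 0.12 (adjusted p = 6.51e-04). For CycB the arrays read 9.36, 9.51 and 9.32 with Arm, 9.78, 9.75 and 9.80 with Ras and 9.90, 10 and 9.96 with both, against 10.05, 9.91 and 9.96 in wild type. CycB3 (0.73), Cdk2 (0.65), fzy (0.81), fzr (0.78) and Bub3 (0.43) departed as well. Without any 1 array 7 of the 9 calls held. fzr reached adjusted p = 0.126 without wild type GFP positive replicate 2A, and Bub3 adjusted p = 0.106 without Ras replicate 2C, and each was lost in 10 of the 12 arrays left out. Of 7 neuroblast markers 2 departed upward too, and their part in the result was not tested.

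**Figure D3:**
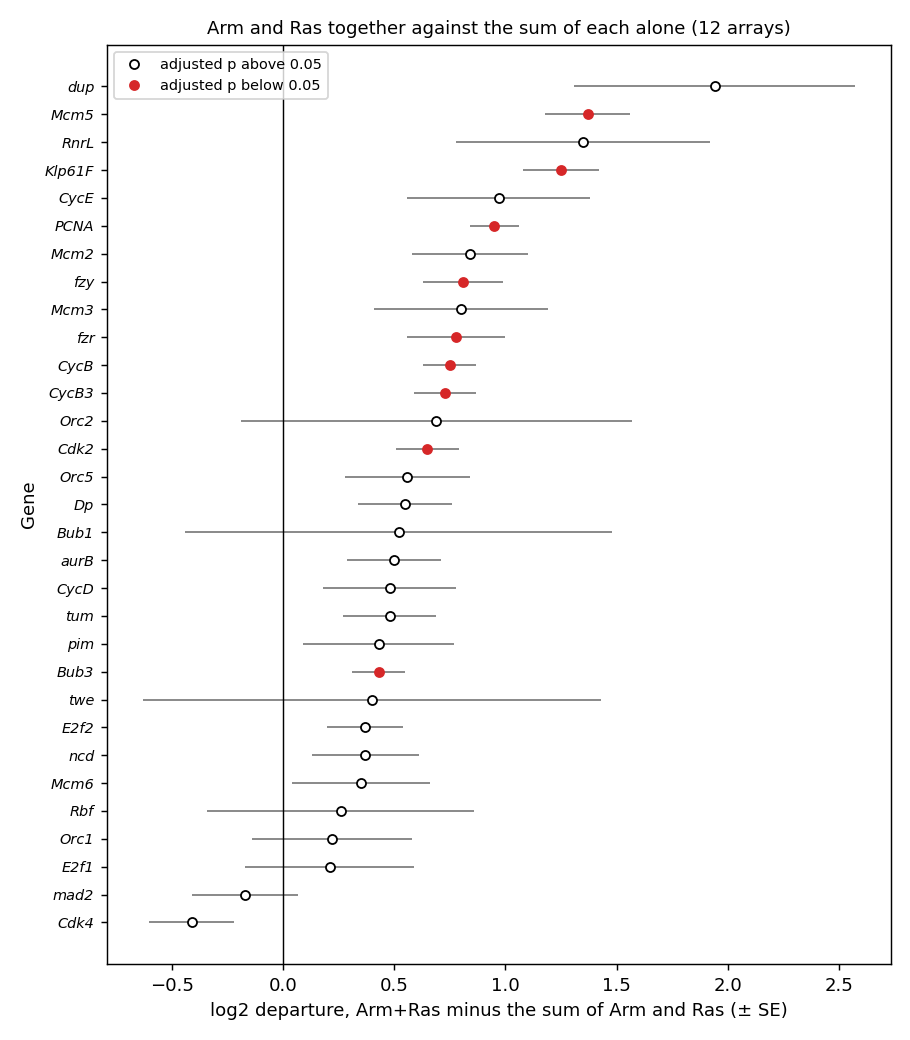
Departure of the Arm+Ras arrays from the sum of the Arm and Ras responses, in log2 units ± SE, for the 31 genes ordered by size, from 4 groups of 3 arrays; filled points have adjusted p under 0.05. The 9 filled points lie between 0.43 (Bub3) and 1.37 (Mcm5), and 2 genes, Cdk4 and mad2, lie below 0.

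Activated Tkv, the type I receptor of Dpp, raised 4 genes (4.43% of all tested probe sets were higher) and lowered 1 (3.95% were lower). Those that rose act in mitosis or with E2F. Klp61F read 8.62, 8.77 and 8.54 against 8.20, 7.94 and 7.84 in wild type mesoderm and rose by 0.65 ± 0.12 (adjusted p = 0.00116). Dp read 8.01, 7.79 and 8.09 against 7.41, 7.14 and 7.08 and rose by 0.75 ± 0.15 (adjusted p = 0.00226). PCNA, in contrast, read 8.59, 8.83 and 8.86 against 9.00, 9.12 and 9.24 and fell by 0.36 ± 0.08 (adjusted p = 0.00529). CycB read 10.48, 10.16 and 10.33 against 10.05, 9.91 and 9.96 and rose by 0.35 ± 0.09 (adjusted p = 0.0123). CycB3 rose by 0.38 ± 0.10. No Tkv array overlapped the wild type in the 5 genes, which were picked on these same arrays. CycB and CycB3 lost their calls without Tkv replicate 2A (adjusted p = 0.0945 and 0.125) and without wild type GFP positive replicate 2B, and 3 genes were called in either case. CycB3 was lost also without Tkv replicate 2C or wild type replicate 2C. With the eIF-4a difference as a covariate, a fit chosen after the data were seen, only Klp61F of these 5 genes passed, and the median of the 31 genes turned from 0.18 to -0.01. In that fit 4.03% of all tested probe sets were called in either direction. The mesoderm markers had a mean level of 7.37 to 7.43 with Tkv against 6.70 to 6.77 in wild type, and 3 of 4 hemocyte markers were higher. Their part in the result was not tested.

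**Figure D4:**
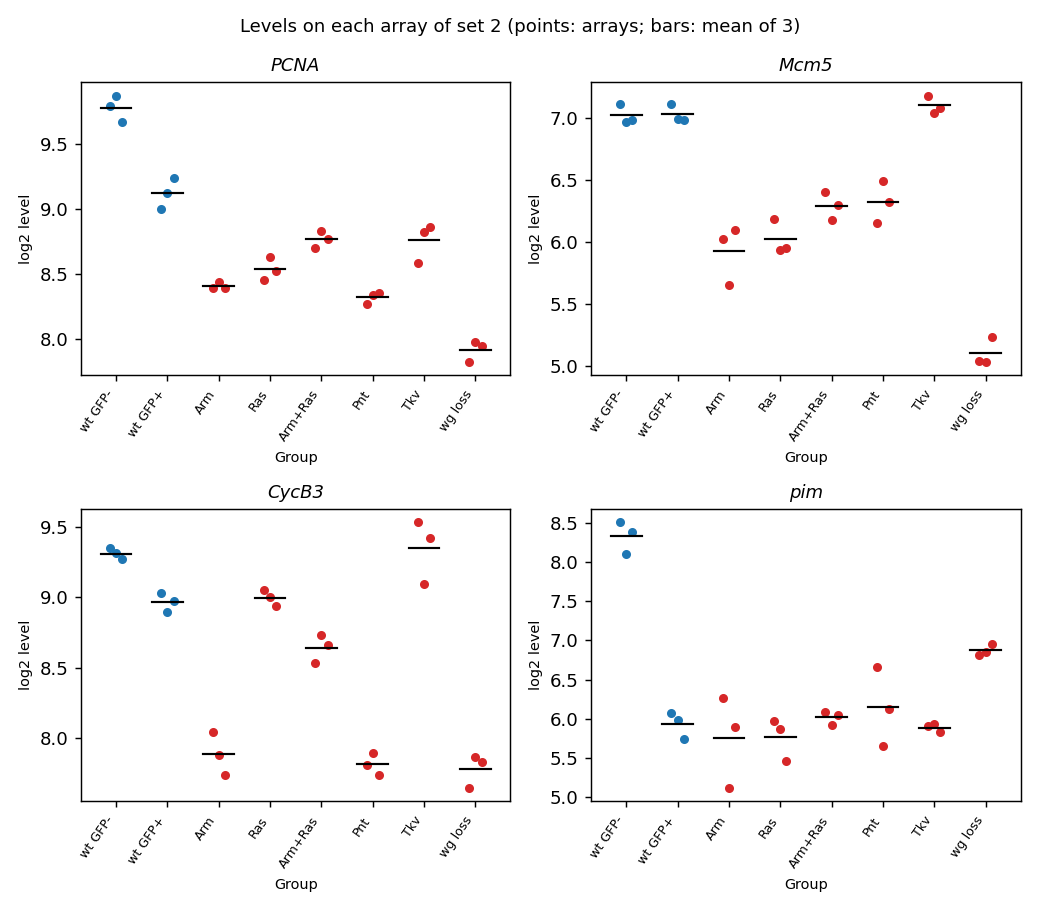
Log2 level of PCNA, Mcm5, CycB3 and pim on each array of set 2 (points) with the mean of 3 (bars); blue points are the wild type gates and red points the GFP positive genotypes, and each panel has its own axis. The wg loss arrays are lowest for PCNA and Mcm5 and above the wild type GFP positive arrays for pim, and CycB3 is low with Arm, Pnt and wg loss.

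In the wg mutants 18 genes fell (15.5% of all tested probe sets were lower) and 3 rose (11.0% were higher), with a median of -0.85. The arrays stood apart in the eIF-4a control difference, as given above, and were the highest of set 2 in the hybridization controls (10.79 to 11.1). RNA integrity itself was not measured. Bub3 read 6.99, 7.05 and 6.74 against 8.55, 8.65 and 8.49 in wild type mesoderm and fell by 1.64 ± 0.08 (adjusted p = 2.35e-12). CycB read 8.52, 8.33 and 8.30 against 10.05, 9.91 and 9.96 and fell by 1.59 ± 0.09 (adjusted p = 7.74e-12). Both lay more than 1 log2 unit below the wild type arrays. The cytokinesis gene tum read 6.20, 5.55 and 5.74 against 8.31, 7.88 and 8.30 and fell by 2.33 ± 0.15 (adjusted p = 1.06e-10). PCNA read 7.82, 7.97 and 7.95 against 9.00, 9.12 and 9.24 and fell by 1.21 ± 0.08 (adjusted p = 1.66e-10). Mcm5 (-1.92), aurB (-1.88), fzy (-1.61), CycB3 (-1.19), Mcm6 (-1.38), Mcm2 (-1.01), ncd (-0.92), dup (-2.33), Cdk2 (-0.52) and Klp61F (-0.60) fell as well. The checkpoint gene mad2 moved the other way and read 7.03, 7.29 and 6.75 against 6.13, 6.19 and 6.18, a rise of 0.86 ± 0.17. The securin gene pim rose by 0.94 ± 0.24 and CycD by 0.93 ± 0.21, and both were named after their values were seen.

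With the same covariate 5 of the 31 genes fell in wg mutants and none rose, while 5.68% of all tested probe sets were called in either direction. CycB, CycB3, PCNA, Bub3 and ncd passed in that fit. The 3 arrays lay above all others of the set in this covariate, so the state of the RNA or its labelling and the genotype cannot be told apart here. Leaving out 1 array kept 19 of the 21 calls; E2f1 (-0.85) reached adjusted p = 0.122 without wg loss replicate 2C, and Rbf (-1.51) stood at -0.81 (adjusted p = 0.0707) without wg loss replicate 2A, where it read 2.32 against 4.47 and 4.40 on the other wg arrays. E2f1 was lost also without wild type GFP positive replicate 2A. In these arrays 3 of 7 mesoderm and 3 of 7 neuroblast markers were lower too, and their part in the result was not tested. Arm gain against wg loss, the gain and the loss of the same pathway, differed in 21 genes. Of these 12 were higher with Arm (13.3% of all tested probe sets) and 9 were lower (11.6%), with a median of 0.49. The 4 genes with the smallest p were higher with Arm: Bub3 by 1.45 ± 0.08, tum by 2.07 ± 0.15, aurB by 1.81 ± 0.15 and CycB by 1.01 ± 0.09. The replication genes Mcm5 (0.82), PCNA (0.49), Mcm6 (1.24) and Mcm2 (0.51) were higher with Arm too, with fzy (1.06), ncd (0.70), Rbf (1.46) and E2f1 (0.74). Those lower with Arm were Dp (-1.32), CycD (-1.77), fzr (-0.88), Klp61F (-0.55), pim (-1.11), mad2 (-0.70), E2f2 (-0.41), Cdk2 (-0.33) and twe (-2.07). For twe the readings were -0.13, 0.54 and -0.23 with Arm and 3.47, 0.45 and 2.45 with wg loss. All lay below the array medians of set 2 (4.166 to 4.276), so the size of its difference is uncertain. Without any 1 array 15 of the 21 calls held. With the covariate 2 genes were higher and 5 lower, while 6.72% of all tested probe sets were called in either direction. In that fit the median of the 31 was -0.26, and Mcm2 (-0.97), Mcm5 (-0.19), Mcm6 (-0.36) and E2f1 (-0.02) lay on the other side of 0 and did not pass. The lost calls were twe (adjusted p = 0.227, without wg loss replicate 2A), Rbf (adjusted p = 0.0979, without wg loss replicate 2A), Mcm2 (adjusted p = 0.276, without wg loss replicate 2B), E2f1 (adjusted p = 0.24, without wg loss replicate 2C), E2f2 (adjusted p = 0.0887, without Arm replicate 2B) and Cdk2 (adjusted p = 0.055, without Arm replicate 2C). Each of them was lost without 2 to 5 of the 6 arrays.

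The further genes of these processes were counted in the genotypes with the most calls. Over all tested probe sets 4.37% fell and 2.55% rose with Arm, 4.98% and 3.87% with Pnt, 2.12% and 2.47% with Ras, 3.95% and 4.43% with Tkv, and 15.5% and 11.0% with wg loss. Outside wg loss, a count of 1 gene in one of these lists is within 1 gene of what such shares come to. Counts of 1 or 2 genes there are read as no result, and genes named from them are given only as a description. Among 31 further replication genes, 19 fell and 1 rose with wg loss, 4 fell with Arm, 5 fell with Ras, 1 rose with Pnt and none passed with Tkv, where limma gave 5 at an unadjusted p under 0.05. With Arm these were PolA2 (-2.59), Mcm10 (-2.09), Cdc45 (-1.67) and RPA1 (-0.85), genes of replication initiation and single-strand binding. With wg loss the clamp loader gene RfC38 (-2.39), DNAlig1 (-2.57), PolD2 (-2.48) and RPA1 (-0.66) had the smallest p, and with Ras they were Prim1 (-2.19), dUTPase (-0.35), Fen1 (-0.73) and Psf1 (-2.09). With Pnt, RPA3 rose by 0.63. Of 28 further control genes, 6 fell and 3 rose with Arm, 5 fell and 5 rose with Pnt, 2 fell and 2 rose with Ras, 1 fell and 2 rose with Tkv, and 12 fell and 5 rose with wg loss. Dref, whose product binds promoters of replication genes, fell with Arm (-1.06), Pnt (-1.12) and Ras (-0.50). The F-box gene slmb fell with Arm (-1.13) and Pnt (-1.08) and rose with Tkv (0.67). The zinc finger gene esg, which keeps cells diploid in imaginal tissue, fell with Arm (-2.61) and Pnt (-2.15) and rose with Ras (2.04).

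Of 20 chromosome structure and kinetochore genes, 7 fell with Arm, 3 fell and 1 rose with Pnt, 1 fell with Ras, 7 rose with Tkv, and 6 fell and 5 rose with wg loss. The condensin gene barr fell with Arm (-0.57) and Pnt (-0.56). Cap-D2, another condensin gene, fell with Arm (-0.52) and wg loss (-1.09) and rose with Tkv (0.47). Incenp, the partner of Aurora B, fell with Ras (-0.69) and wg loss (-2.15). The cohesin gene SMC1 fell with Arm (-0.43) and rose with Tkv (0.53), beside the histone gene His2Av (0.33) and the kinetochore gene Spc105R (1.02). Of 17 spindle, centrosome and cytokinesis genes, 4 fell with Arm, 3 with Pnt and 2 with Ras, 2 rose with Tkv, and 10 fell and 2 rose with wg loss. Septin1 fell with Arm (-0.61), Pnt (-1.10) and wg loss (-0.93), and the microtubule polymerase gene msps rose with Tkv (1.03). Of 16 APC/C and checkpoint genes, 3 fell with Arm, 2 fell with Pnt, 1 rose with Ras, 1 rose with Tkv, and 4 fell and 1 rose with wg loss. The ubiquitin-conjugating enzyme gene vih fell with Arm (-0.75 ± 0.06) and rose with Ras (0.29), Tkv (0.38) and wg loss (1.13).

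In set 3 the Dl mutants, which lack a ligand of Notch, had 4 genes that rose, against 0.859% of all tested probe sets that were higher, and none that fell. The median of the 31 genes was 0.39. Mcm5 read 5.95, 5.80 and 6.18 against 5.07, 5.11 and 4.63 in wild type mesoderm and rose by 1.04 ± 0.18 (2.05-fold, adjusted p = 0.00565). The spindle motor gene ncd read 7.38, 7.33 and 7.13 against 6.61, 6.66 and 6.71 and rose by 0.62 ± 0.12 (adjusted p = 0.0127). In both genes the Dl arrays overlapped the GFP negative arrays of the set. E2f1 read 6.57, 6.50 and 6.42 against 6.08, 5.95 and 6.07 and rose by 0.46 ± 0.10 (adjusted p = 0.0254). Cdk2 read 6.29, 6.54 and 6.48 against 5.92, 5.96 and 5.85 and rose by 0.52 ± 0.12 (adjusted p = 0.0277), while its GFP negative arrays read 6.83, 6.88 and 6.88. Only Mcm5 kept its call without any 1 array. The others were lost without Dl replicate 3B, where Cdk2 reached adjusted p = 0.122 and ncd adjusted p = 0.0576. E2f1 was lost without any 1 of the 6 arrays and reached adjusted p = 0.118 without wild type GFP positive replicate 3B. Cdk2 was kept only without Dl replicate 3A, and ncd only without Dl replicate 3C or wild type replicate 3C. Each of the 6 arrays left out brought the count to 1 or 2 genes. With the letters of the arrays as a block 11 genes rose, while 5.08% of all tested probe sets were called in either direction. The mutants were labelled 6 to 8 h and their wild type 5.5 to 7.5 h. The eIF-4a difference between 3′ and 5′ was 2.83 to 3.74 with Dl loss, against 2.37 to 2.79 in the wild type GFP positive arrays. For actin it was 1.64 to 1.88 against 1.0 to 1.34, while the GAPDH ranges overlapped. Age, the state of the RNA or its labelling, and genotype therefore cannot be told apart in this comparison. With the eIF-4a covariate 8 genes rose and 1 fell, while 5.33% of all tested probe sets were called in either direction.

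Loss of lmd, a factor of fusion-competent myoblasts, and activated Notch gave 0 calls each by limma. With lmd loss 4 of the 31 genes had an unadjusted p under 0.05, while 1.03% of all tested probe sets were called in either direction. E2f1 had the smallest p, at 0.40 ± 0.10 (adjusted p = 0.0883), and read 6.52, 6.42 and 6.36. With Notch 3 genes had an unadjusted p under 0.05, against 1.48% of all tested probe sets called, and Orc2 had the smallest p (2.15 ± 0.55, adjusted p = 0.0771). The mean level of Orc2 was 3.39 with Notch and 1.24 in wild type mesoderm. Both lay below the array medians of set 3 (3.648 to 3.725), so the size of this difference is uncertain. With the eIF-4a covariate 4 genes rose and 2 fell with lmd loss, while 4.54% of all tested probe sets were called in either direction. In the same fit 2 rose and 1 fell with Notch, while 4.91% of all were called. With the letters of the arrays as a block 1 gene rose and 1 fell with lmd loss, while 2.76% of all tested probe sets were called in either direction. That block gave 0 calls with Notch, where 3.04% of all were called.

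The 3 genotypes of set 3 were of the same age and were compared directly. Activated Notch was lower than loss of Dl in 2 genes, against 2.81% of all tested probe sets that were lower, and 25 of the 31 genes were below 0. Mcm5 read 5.36, 5.02 and 5.23 with Notch, below the Dl readings of 5.95, 5.80 and 6.18, and differed by -0.77 ± 0.18 (adjusted p = 0.0198). E2f1 read 6.13, 6.07 and 5.97 with Notch against 6.57, 6.50 and 6.42 and differed by -0.44 ± 0.10 (adjusted p = 0.0188). Mcm5 lost its call without Dl replicate 3C (adjusted p = 0.0974) and without Notch replicate 3B or 3C. E2f1 lost its call without Notch replicate 3C (adjusted p = 0.0728) or 3B and without Dl replicate 3A or 3B, so that no gene was called without either of those Notch arrays. With the letters of the arrays as a block 7 genes were lower with Notch than with Dl loss, while 8.64% of all tested probe sets were called in either direction. Between lmd loss and Dl loss limma called 0 genes, with 7 at an unadjusted p under 0.05 and 1.70% of all tested probe sets called in either direction. Mcm5 had the smallest p there (-0.68 ± 0.18, adjusted p = 0.0875), and 27 of the 31 genes were below 0. Between lmd loss and Notch it called 0, with 4 at an unadjusted p under 0.05 and 3.61% of all tested probe sets called.

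Of the 7 neuroblast markers 5 rose with Dl loss, beside the 4 genes that rose, and 6 were lower with Notch than with Dl loss. Against wild type 5 markers fell with Notch, where none of the 31 genes was called and their median was 0.11. Their mean level was 6.81 to 6.98 with Dl loss, 5.62 to 5.72 with lmd loss and 4.89 to 5.09 with Notch, against 5.73 to 5.94 in wild type mesoderm. The neuroblast determinant mira rose by 1.56 ± 0.09 with Dl loss, and insc rose by 1.63 ± 0.22. The part of neural cells in the Dl result was not tested.

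**Figure D5:**
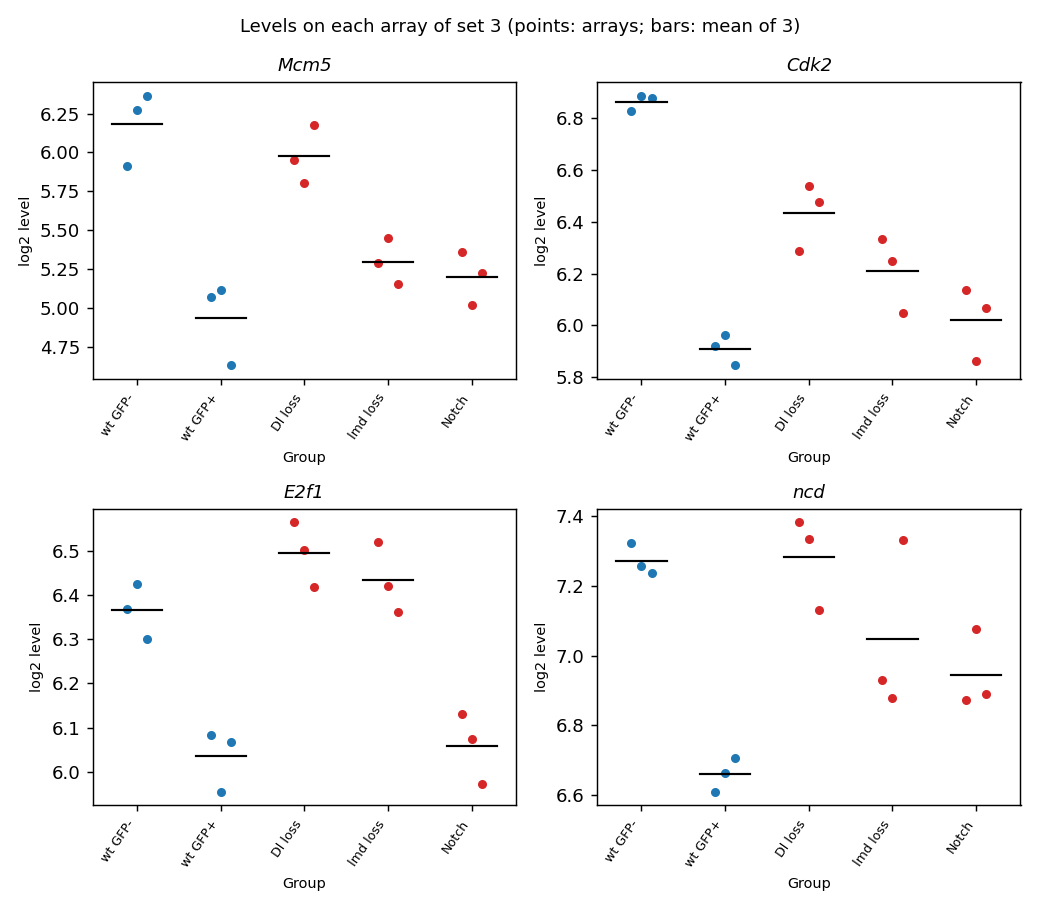
Log2 level of Mcm5, Cdk2, E2f1 and ncd on each array of set 3 (points) with the mean of 3 (bars); blue points are the wild type gates and red points the GFP positive genotypes, and each panel has its own axis. The Dl loss arrays lie above all 3 wild type GFP positive arrays in each panel, and for Mcm5 the lmd loss arrays (5.16 to 5.45) lie between those groups.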

How the data were processed

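RNA of sorted embryonic cells was measured on 54 arrays, 3 per group. The authors deposited 1 normalised value per probe set and array, taken here as log2 from the range of -3.076 to 13.581; the affy package is named per the submitters' processing notes, and the summary method and log base are not given in the sources used here. Array medians were 4.575 to 4.62 in set 1, 4.166 to 4.276 in set 2 and 3.648 to 3.725 in set 3. The deposited values were used as they were. Of 14010 probe sets, 44 controls were left out and 13966 were tested; 12443 had 1 gene symbol in the platform annotation, 327 several and 1196 none, and 10 values were missing.

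limma 3.58.1 in R 4.3.3 (lmFit, and eBayes with a trend of the prior variance on the mean level) fitted the groups of each set together, and for the GFP comparison the 18 wild type arrays with the gate and the set as terms. The variation between sets was tested as an interaction. P-values were adjusted by Benjamini and Hochberg over all tested probe sets, with a threshold of 0.05. The fits were tested on simulated data with independent noise around a common mean of each probe set. These held no difference between sets, letters or RNA controls, so they could not test for such effects. The 31 genes had 1 probe set each. Python 3.11.15 with numpy 2.4.6 and pandas 2.3.3 made the tables, and matplotlib 3.10.9 the plots.

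The genes and all lists were chosen with earlier results of these data known. Every gene was named once in the GFP comparison and wherever it was called, up to the 15 smallest p. Array values are given for the smallest p of each role and for up to 4 genes per genotype. Of each further list up to 4 genes were named in the GFP comparison and in the genotypes with the most calls. Ras and Tkv tied for the last of these places, so that both are given. The alternatives were a prior variance without trend, a replicate block, quantile normalization, a filter on dim probe sets, a fit of only the groups compared, each set alone, and arrays left out. The eIF-4a difference as a covariate and a fit without the wg loss arrays were added after the data were seen. Promoter sequences were not used here.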

Additional observations from a re-analysis of the deposited data

Results flagged for a closer look

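The difference between GFP positive and GFP negative cells varied between the 3 sets by the interaction test in limma for 13 of the 31 genes. Among cyclins and kinases these were CycB (adjusted p = 0.00541) and Cdk2 (adjusted p = 0.0346). The phosphatase gene twe (adjusted p = 0.0329) and the APC/C activator gene fzy (adjusted p = 0.0166) passed too. Of the replication genes, Mcm2 (adjusted p = 0.00164), Mcm5 (adjusted p = 0.00212), Mcm6 (adjusted p = 0.0179) and dup (adjusted p = 0.0266) varied. Of the mitosis genes, aurB (adjusted p = 0.00202), Bub3 (adjusted p = 0.00318), pim (adjusted p = 0.00356), mad2 (adjusted p = 0.00653) and tum (adjusted p = 0.0147) varied. For CycB the difference was -0.85 in set 1, -0.22 in set 2 and -0.66 in set 3, for dup -1.21, -0.32 and -1.10, for mad2 -1.01, -1.85 and -0.71, and for Bub3 -0.40, 0.32 and -0.19. The sets differ in their arrays and in their normalised level, and what made the differences vary was not tested.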

How the results depend on the processing

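Over all settings 1855 values of called genes kept their direction and their side of the threshold, 347 lost the call and 10 changed sign. Counts of called genes, given here with the reported count after "from", stayed within 1.5 times in 209 cases and moved by more in 86. Leaving out 1 array in turn gave 8 to 13 genes with Arm, 1 to 2 with Arm+Ras, 1 to 2 with Dl loss, 0 to 2 with EGFR, 0 to 2 with FGFR, 0 to 2 for Notch against Dl loss, 9 to 12 with Pnt, 3 to 5 with Ras, 3 to 6 with Tkv, 0 to 1 for lmd loss against Notch and 1 to 3 with spi loss. In the GFP comparison 9 genes were called in set 2 alone and 11 in set 3 alone, from 19, and in set 2 alone Mcm3 (0.03), Mcm5 (0.01) and Mcm6 (0.11) changed sign. Without a variance trend the interaction called 6 genes (from 13), EGFR 0 (from 2), spi loss 1 (from 3), Arm+Ras 1 (from 2), Tkv 2 (from 5), Dl loss 1 (from 4) and Notch against Dl loss 0 (from 2). With only the groups compared, limma called 0 with EGFR, 0 with FGFR (from 1), 1 with spi loss, 7 with Arm (from 13), 1 with Arm+Ras, 7 with Pnt (from 14), 2 with Tkv, 1 with Dl loss, 0 for Notch against Dl loss and 13 for Arm against wg loss (from 21). With the brighter probe sets only, FGFR gave 2, spi loss 5, Dl loss 7, Notch against Dl loss 5, and lmd loss, lmd against Dl loss, lmd loss against Notch and Arm+Ras against Ras 1 each (from 0). Without the arrays of letter A the interaction called 6, EGFR, FGFR and spi loss 0 each, Arm 7, Ras 2 (from 5), Arm+Ras 1, Pnt 5, and Notch against Dl loss, lmd against Dl loss and lmd loss against Notch 1 each. With the eIF-4a covariate EGFR gave 1, Arm+Ras 4, Tkv 1, wg loss 5 (from 21), Dl loss 9, lmd loss 6, Notch 3, Notch against Dl loss 6, lmd against Dl loss 2, lmd loss against Notch 3 and Arm against wg loss 7. In that fit the sign changed for Mcm2 (0.37), Mcm6 (0.12) and dup (2.57) in wg loss, for E2f1 (-0.02), Mcm2 (-0.97), Mcm5 (-0.19) and Mcm6 (-0.36) in Arm against wg loss, and for the medians of Tkv (-0.01) and of Arm against wg loss (-0.26). The median of spi loss, 0.01, was -0.01 without the arrays of letter A and -0.03 to 0.04 when 1 array was left out, below 0 without spi replicate 1B or 1C or wild type replicate 1B. The cause of these changes was not tested.

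With the replicate letter as a replicate block, FGFR gave 2 genes, Dl loss 11, lmd loss 2, Notch against Dl loss 7, lmd against Dl loss 2 and lmd loss against Notch 2; the other counts stayed within 1.5 times. Deviations of arrays with the same letter correlated at r = -0.025 to 0.142, and in 0 of 20 comparisons did all letters exceed 0.1, so the letters were not used as pairs. This rule cannot show a shift of 1 letter alone. In every group of set 3 the letter A array was the highest for CycB (with Dl loss 9.31 against 8.89 and 8.92). It was the lowest for fzr (6.18 against 6.62 and 6.72). These genes were named after their values were seen. The set 3 counts without the block leave such a shift in the spread between arrays. In the set 3 comparisons letter A alone exceeded 0.1 (0.111 to 0.142), as it did with Arm (0.113) and Pnt (0.104), a hint from the data of something these arrays share. A mean over probe sets gave no other value, since each gene had 1 probe set. With 3 arrays per group, differences of genes with a large spread between arrays, such as Orc2 and Bub1, were not detectable at the sizes measured.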

Other observations

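The ubiquitin-conjugating enzyme gene vih, which works with the APC/C and was not among the 31 genes, differed in sign from PCNA in 3 of the genotypes of set 2. It rose with Ras (0.29 ± 0.06) and Tkv (0.38 ± 0.06) and in the wg loss arrays (1.13 ± 0.06), where PCNA fell by 0.59 ± 0.08, 0.36 ± 0.08 and 1.21 ± 0.08. It fell with Arm (-0.75 ± 0.06) and with Arm+Ras (-0.29 ± 0.06), as PCNA did. vih was singled out after its values were seen, and its difference from PCNA was not tested. With Ras and with Tkv it was the only gene of its list that was called, a count read above as no result.

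The greatwall substrate gene endos rose with Pnt (0.94 ± 0.10), with Ras (0.39 ± 0.10) and in the wg loss arrays (1.72 ± 0.10), and it too was singled out after its values were seen.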
